A study of Rattus norvegicus with 12 samples.

Results

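Lipocalin 2 (Lcn2), transferrin (Tf), ceruloplasmin (Cp) and chitinase 3-like 1 (Chi3l1) are secreted proteins that glia and, outside the brain, the liver or white blood cells release during inflammation and for iron transport. Every probe carrying one of these gene symbols in the platform annotation was taken, which gave 4 probes, 1 for each gene, of 22523 probes on the array and 13793 with a symbol. The genes were selected on earlier results of the same 12 arrays. Which values led to the choice is not recorded, so every difference of these 4 genes is given as a description, without a p-value. Where a call of one of them in the fit over all probes is named, nothing is read from it.

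The 12 Illumina RatRef-12 bead arrays measured RNA of hippocampal cultures from embryonic day 18.5 Sprague Dawley rats, plated over a glial feeder layer and kept for 12 days. Each culture first spent 3 h with TTX at 100 nM, CNQX at 40 µM and D-APV at 50 µM, which silence glutamatergic transmission and spiking. Block cultures stayed in these inhibitors, whereas Activity cultures received 50 µM bicuculline and 500 µM 4-AP for 5 min, which release synaptic firing. Either condition was combined with 25 µM actinomycin D (ActD), an inhibitor of transcription that was already present in rinses before the stimulus, or with its solvent DMSO. RNA was harvested at 5, 30 or 60 min. Each of the 12 groups was 1 array made from 3 pooled coverslips and all arrays carried replicate number 3, so no group had a second sample. The sources used here do not say whether the harvests came from separate preparations, so harvest and preparation cannot be told apart.

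Lcn2 is a small lipocalin that binds bacterial siderophores and the iron they carry. Reactive astrocytes are a known source of it in the brain, and inflammatory signalling through NF-kB and C/EBP proteins is known to raise it. Tf carries ferric iron in blood and brain fluids, and oligodendrocytes and the choroid plexus are its main sources in the brain. Cp is a copper oxidase that astrocytes also hold on their surface, where it oxidizes iron leaving the cell through ferroportin. Chi3l1, a chitinase-like glycoprotein that binds chitin without cutting it, marks reactive astrocytes. Acute phase proteins are secreted proteins whose level shifts in inflammation, under the control of interleukins acting through STAT3, C/EBP proteins and NF-kB.

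In the RefSeq annotation of GRCr8, Lcn2 lies at chr3:36078432-36081851, Tf at chr8:112668667-112695376, Cp at chr2:104368336-104427119 and Chi3l1 at chr13:48193839-48201822. All 4 genes were matched to the RefSeq promoter table by gene identifier. The promoters are shown because the genes shared the pattern across harvests described below, 250 bases before to 50 after each start site, 5′ to 3′ on the strand of the gene. They are credited to RefSeq, build GRCr8, at chr3:36081731-36082030 (minus strand) for Lcn2, chr8:112695327-112695626 (minus strand) for Tf, chr2:104368420-104368719 (plus strand) for Cp and chr13:48193589-48193888 (plus strand) for Chi3l1. The Cp window lies inside the annotated span of its gene. Capitals mark matches, on either strand, to the NF-kB consensus, TTNNGCAA for C/EBP, TTCNNNGAA for STAT and TATAAA for the TATA box.
Lcn2: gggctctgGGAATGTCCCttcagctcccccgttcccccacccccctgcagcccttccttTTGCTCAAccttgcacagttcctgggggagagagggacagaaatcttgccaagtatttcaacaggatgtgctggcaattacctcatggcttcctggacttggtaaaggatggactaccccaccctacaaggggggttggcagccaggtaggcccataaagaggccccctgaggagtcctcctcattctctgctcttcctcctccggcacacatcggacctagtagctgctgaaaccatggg
Tf: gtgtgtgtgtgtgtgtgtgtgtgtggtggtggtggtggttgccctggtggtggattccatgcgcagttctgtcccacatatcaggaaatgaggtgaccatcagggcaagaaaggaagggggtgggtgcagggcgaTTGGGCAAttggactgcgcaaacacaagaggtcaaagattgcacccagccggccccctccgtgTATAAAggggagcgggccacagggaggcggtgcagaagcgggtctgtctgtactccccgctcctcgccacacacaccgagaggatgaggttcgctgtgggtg
Cp: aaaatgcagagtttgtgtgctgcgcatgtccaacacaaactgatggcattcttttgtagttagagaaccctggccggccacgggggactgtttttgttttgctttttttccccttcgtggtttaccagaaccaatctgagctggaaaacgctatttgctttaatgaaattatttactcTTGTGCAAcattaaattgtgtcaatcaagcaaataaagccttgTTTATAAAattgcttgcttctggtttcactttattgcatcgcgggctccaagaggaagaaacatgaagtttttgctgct
Chi3l1: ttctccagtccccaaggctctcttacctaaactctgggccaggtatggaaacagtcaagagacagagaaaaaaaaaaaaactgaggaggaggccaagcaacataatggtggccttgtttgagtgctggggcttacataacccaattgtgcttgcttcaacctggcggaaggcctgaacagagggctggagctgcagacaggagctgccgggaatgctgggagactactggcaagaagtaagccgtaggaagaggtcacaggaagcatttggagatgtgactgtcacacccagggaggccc
Positions count from the start site. In the Lcn2 window the NF-kB consensus matched at -242 to -233 and TTNNGCAA at -191 to -184, both on the other strand and without overlap. Tf had a C/EBP match at -115 to -108 and a TATA match at -52 to -47. In Cp, TTNNGCAA matched at -72 to -65 and TATAAA at -27 to -22, overlapping its match on the other strand at -29 to -24. No motif of the 4 was found in the Chi3l1 window, and none of the 4 windows held the STAT letters. Among 33469 rat promoters of the same length, the NF-kB consensus was in 7.51%, the C/EBP letters in 10.6%, the STAT letters in 8.87% and the TATA letters in 14.2%. A match gives letters in a window and is no evidence of binding.

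Total intensity was between 10858200 and 13824800 per array, 9751 to 11032 probes had a detection p under 0.01, and the median signal of probes at background was 44.3 to 54.8. The detection p compares a probe with the negative controls of its own array. On this scale every neuronal marker of a list of 10 and all 7 astrocyte markers on the array passed the detection filter. The cultures therefore held glial as well as neuronal RNA, as their plating over glia describes. Of the 10 microglial markers on the array, Aif1, Ctss, C1qa, C1qb and Trem2 were detected on all 4 arrays of 5 min, Tyrobp on 2 of them, Itgam and Cx3cr1 on 1 array in all, and P2ry12 and C1qc on 0 arrays.

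Lcn2 was by far brightest at the first harvest. At 5 min its intensity was 30314.2 in Block, 24862.4 in Block + ActD, 22160 in Activity and 25293.3 in Activity + ActD. At 30 min the values in the same order were 349.3, 216.2, 197.5 and 187.7. They were 77.1, 98.2, 87.6 and 81.3 at 60 min. The 3 harvests did not overlap, and the detection p was 0 on all 12 arrays. After subtraction of background, the mean of the 4 arrays at 30 min was 0.737% of the 5 min mean, and that at 60 min was 0.153%. The highest intensity of any probe on a 5 min array was 39697.6 to 41018.6, so Lcn2 was not the brightest probe on any of them. These values do not show where the bead signal saturates, and compression of bright signals was not tested.

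Tf had the same order of harvests. It read 16295.3 in Block, 21629.6 in Block + ActD, 26600.9 in Activity and 21010.4 in Activity + ActD at 5 min. The 30 min arrays gave 206.7, 211.2, 159.8 and 155.5 in that order, and the 60 min arrays 85.5, 104.4, 93.9 and 95.5. No array of one harvest reached into the range of another, and all 12 detection p-values were 0. Background-subtracted means were 0.63% of the 5 min mean at 30 min and 0.225% at 60 min.

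Chi3l1 read 5453.5 in Block, 7210.4 in Block + ActD, 9359.6 in Activity and 8020.9 in Activity + ActD at 5 min. At 30 min it read 219.1, 170.3, 164.6 and 153.8, and at 60 min 139.5, 146.5, 162.3 and 111.5. The 5 min arrays stood above all others, whereas the 30 and 60 min arrays overlapped. Its detection p was 0 on all 12 arrays. The mean above background was 1.72% of the 5 min mean at 30 min and 1.25% at 60 min.

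Cp was the only one of the 4 that was lost from detection. At 5 min it read 1389.4 in Block and 1602.4 in Activity without ActD, but 347.5 in Block + ActD and 444.1 in Activity + ActD, each with a detection p of 0. At 30 min only the Block array detected it, at 74 with a detection p of 0. The other 30 min arrays read 60.1 with a detection p of 0.26541 in Block + ActD, 65.4 with 0.02767 in Activity and 64.7 with 0.03513 in Activity + ActD. At 60 min the intensities were 54.1, 54.6, 49.7 and 53.8, with detection p-values of 0.21338, 0.24811, 0.43711 and 0.13858. All 8 later arrays were thus within 25.9 units of background, and the lowest 5 min array was 292.7 units above it.

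**Figure D1:**
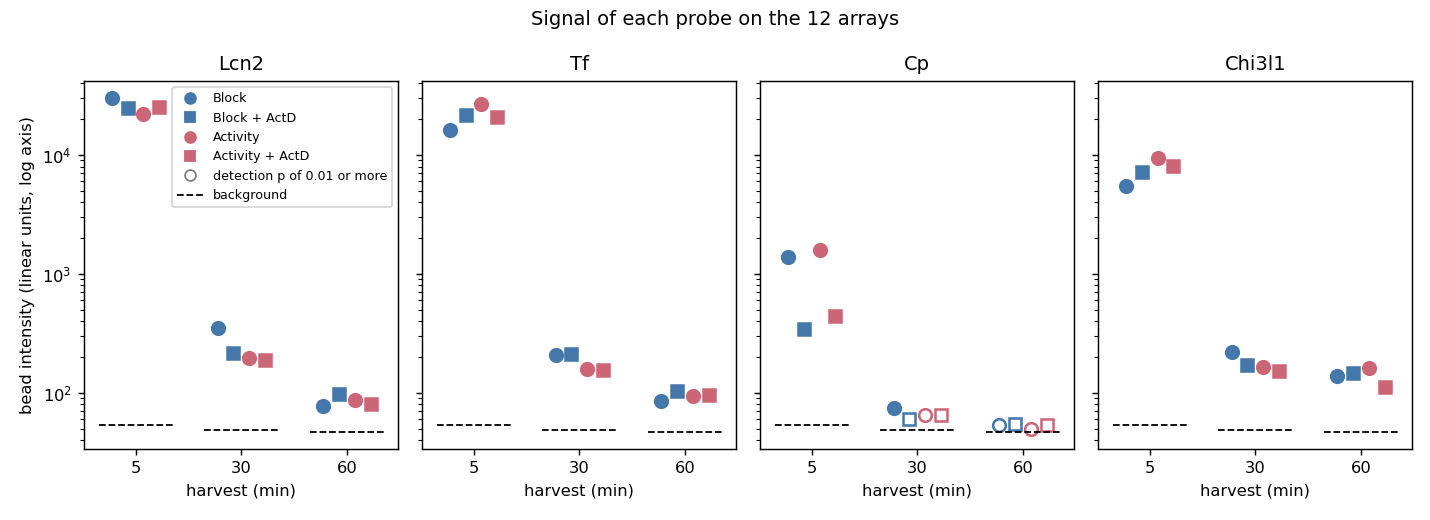
Bead intensity (linear units on a log axis) of the Lcn2, Tf, Cp and Chi3l1 probes on each of the 12 arrays, against harvest in min; circles are arrays without ActD and squares with ActD, blue is Block and red Activity, open symbols have a detection p of 0.01 or more, and the dashed line is the mean background of the 4 arrays of a harvest. All 4 probes are highest on the 5 min arrays, and Cp reaches background at 60 min.

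Differences were next taken on normalized log2 values, after background correction and quantile normalization, and are given ± SE from a fit over all 12 arrays with treatment and harvest as factors. Normalized levels of Lcn2 were 14.44 ± 0.22 (SD, n = 4 arrays) at 5 min, 7.62 ± 0.51 at 30 min and 5.74 ± 0.20 at 60 min. For Tf they were 14.19 ± 0.23, 7.21 ± 0.23 and 5.95 ± 0.18. Chi3l1 had 12.70 ± 0.30, 7.14 ± 0.32 and 6.72 ± 0.26. Those of Cp were 9.49 ± 1.01, 5.03 ± 0.31 and 4.63 ± 0.12, and its SD at 5 min was the widest of these because the arrays with and without ActD stood apart.

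The mean of the 30 and 60 min arrays minus that of the 5 min arrays was -7.76 ± 0.16 for Lcn2, -7.61 ± 0.12 for Tf, -5.77 ± 0.15 for Chi3l1 and -4.66 ± 0.25 for Cp. By size these were the 3rd, 4th, 10th and 15th of 11792 tested probes, whose differences had a median of -0.01 and an SD of 0.58. All 4 were called lower in the fit. Cp passed the detection filter through its 4 arrays of 5 min, with 1 of 8 later arrays detected. Its value, unlike those of the other 3, therefore rests mostly on later levels below detection, and bounds are given below. Over all tested probes 23.4% were called lower and 25.9% higher, at a Benjamini-Hochberg adjusted p of 0.05, and nothing is read from the count because the same arrays chose the genes. The 5 min arrays all lay above the 8 later ones for 12.4% of tested probes, among them these 4. Falls of 3 or more on the log2 scale were found at 33 probes and falls of 5 or more at 11, while the largest rise was 2.48. The values and ranks are as measured, and for a probe at background later they rest on levels below detection. Cfb, complement factor B, which 1 of 8 later arrays detected, had the largest of these measured falls and was at least 253-fold higher at 5 min. In bulk RNA, fewer cells of a type and less RNA per cell cannot be told apart.

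Since Cp was not above background at 60 min on any array, its fall there is only a bound. The mean at 5 min was set against the mean of the lowest level that passed detection on each 60 min array, which put Cp at least 19.9-fold higher at 5 min. Against 30 min, where 1 of 4 arrays measured it, the same bound was 18.9-fold. Lcn2 was 113-fold higher at 5 than at 30 min and 416-fold higher than at 60 min. For Tf the folds were 126 and 302, and for Chi3l1 they were 47 and 63.2.

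**Figure D2:**
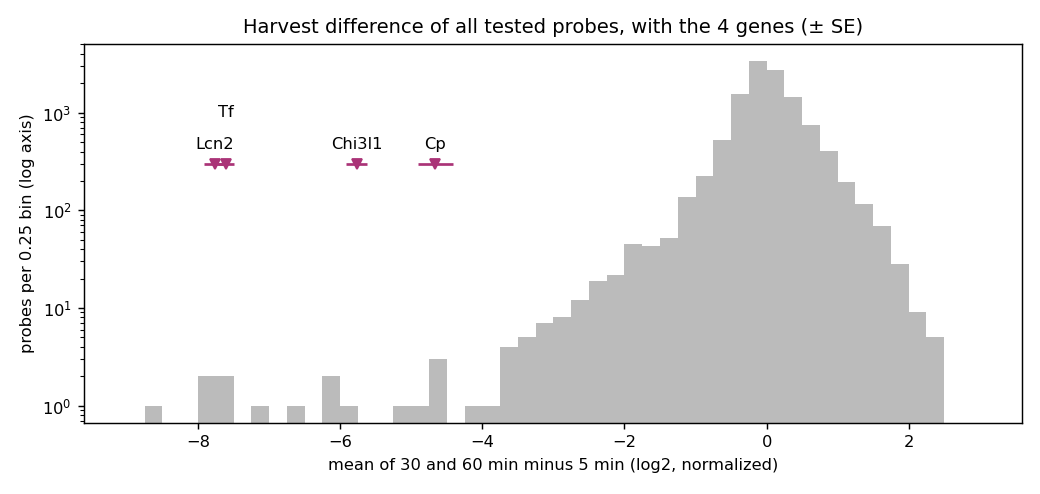
Number of tested probes (log axis) in each 0.25 bin of the difference between the mean of the 30 and 60 min arrays and the mean of the 5 min arrays (log2, normalized), with the 4 genes as triangles with SE bars. The 4 genes lie at -7.76, -7.61, -5.77 and -4.66, in the sparse left tail, and the height of the triangles has no meaning. Probes at background on the later arrays, Cp among them, are plotted as measured, and the bounds for Cp in the text are smaller.

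Between the later harvests Lcn2 and Tf went on falling. The 60 min level minus the 30 min level was -1.88 ± 0.18 for Lcn2 and -1.27 ± 0.14 for Tf, and both were called. It was -0.42 ± 0.17 for Chi3l1 and -0.40 ± 0.29 for Cp, which were not called, and the normalized levels of the 30 and 60 min arrays overlapped in each. Over all tested probes 3.58% were called lower at 60 min. With arrays scaled to equal medians these falls were smaller, at -1.23 for Lcn2 and -0.79 for Tf.

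The levels of the 4 genes also varied together over the arrays, which share harvests. Over all 12 arrays Pearson's r of each pair was 0.96 to 0.99, a value that mostly measures the gap between 5 min and later. Over the 8 later arrays r was 0.98 for Lcn2 and Tf, 0.81 for Lcn2 and Cp, 0.80 for Lcn2 and Chi3l1, 0.71 for Tf and Cp, 0.68 for Tf and Chi3l1 and 0.66 for Cp and Chi3l1, with Cp close to background. Among the 5 min arrays the order was not shared. Lcn2 was highest in Block, where Tf and Chi3l1 were lowest, and it was lowest in Activity, where Tf and Chi3l1 were highest.

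The 5 genes most like each of the 4 were taken by r over 12 arrays, among tested probes with a symbol. After Tf at 0.99, the list for Lcn2 held Slc1a5, a glutamine transporter, Gbp2, an interferon-induced GTPase, Tmem176b and Ier3, an early response gene, all at 0.99. For Tf it held C1s, a complement protease, at 0.998, Ier3, the chemokines Ccl2 and Cxcl1, and Slc16a1, a lactate transporter. The list for Chi3l1 held C1r, the partner protease of C1s, Cxcl1, Ube2l6, Cfb and Cd83. For Cp it held Ifi44l at 0.99, Tmem123, Has2, a hyaluronan synthase, Lcp1, an actin bundling protein of white blood cells, and Cd93. Within the 8 later arrays r was lower for all of these, with 0.95 for Tf and C1s, 0.74 for Chi3l1 and C1r, 0.56 for Cp and Ifi44l, and 0.35 for Cp and Cd93. Over the 4 arrays of 5 min, r with Lcn2 was -0.97 for Tf, 0.58 for Slc1a5, 0.04 for Gbp2, -0.55 for Tmem176b and -0.96 for Ier3. In the lists of Tf, Cp and Chi3l1 it was positive throughout.

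Cp stood apart from the other 3 genes in its difference between arrays with and without ActD at the first harvest. At 5 min the normalized level of Cp with ActD minus that without was -1.82 in Block and -1.65 in Activity cultures, which is 3.53-fold and 3.13-fold lower. The same differences were -0.31 and 0.33 for Lcn2, 0.29 and -0.24 for Tf, and 0.43 and -0.08 for Chi3l1, so that each of these changed sign between Block and Activity. Over all tested probes the differences had an SD of 0.49 in Block and 0.33 in Activity, and of 0.22 in either at 30 min. The 5 min arrays with ActD also detected fewer probes, 9751 in Block and 10001 in Activity, against 10484 and 10468 without it. When probes were ordered by the smaller of their falls in both conditions, Cp was 2nd of 11792, after Sh3bgrl1. A fall of 1 or more in both conditions was found at 66 probes, 0.56% of those tested. Each value compares 1 array with 1 array, and no error could be given within a harvest.

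At 30 min the ActD difference of Cp was -0.75 in Block and -0.07 in Activity, and at 60 min it was -0.02 and 0.28, with levels at or near background. Lcn2 showed -1.02 and -0.19 at 30 min and 0.50 and -0.01 at 60 min. Those of Tf were -0.17 and -0.12, then 0.38 and 0.17. For Chi3l1 they were -0.70 and -0.19, then 0.07 and -0.64. None of the 4 genes kept 1 sign over both conditions and all harvests.

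Averaged over stimulus and harvest, the ActD difference was -0.67 ± 0.23 for Cp, -0.12 ± 0.15 for Lcn2, 0.05 ± 0.11 for Tf and -0.18 ± 0.14 for Chi3l1. No probe on the array was called in this comparison by limma (0 of 11792, 0%), with 2167 at an unadjusted p under 0.05. Without the Block + ActD array of 30 min, 604 probes were called. A second fit compared the ActD difference at the later harvests with that at 5 min. This change was 1.59 ± 0.25 for Cp, -0.19 ± 0.31 for Lcn2, 0.04 ± 0.23 for Tf and -0.54 ± 0.25 for Chi3l1. In that direction 4.73% of tested probes were called, Cp among them. Nothing is read from this, since 7 of the 8 later Cp arrays were at background, where ActD could hardly lower it further, and the value mostly restates the difference at 5 min. Leaving out the Block array or the Block + ActD array of 5 min ended all 619 calls of this fit, Cp included. Over all arrays left out in turn the Cp value was 1.45 to 1.74.

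Summed levels of cell type markers at 5 min are given beside this difference. Sums here and below are of normalized levels after background correction, on a linear scale. They are not sums of the bead intensities printed for single genes and cannot be compared with them. The summed level of the 7 astrocyte markers at 5 min was 54053.1 to 54429.6 without ActD and lower, 47851 to 52650.4, with it. That of the 6 tested microglial markers was 793 to 1184 without and 866 to 1309 with ActD, which overlap. Fibroblast and vessel markers summed to 1529 to 1596 without ActD and 1309 to 1368 with it. Reactive astrocyte genes overlapped, at 46493 to 47209 without and 45034 to 47905 with ActD. The sums of oligodendrocyte, choroid plexus and neuronal markers overlapped too. The chitinase-like and lipocalin genes, which mark no cell type, went the other way, with 375 to 425 without ActD and 497 to 553 with it. Each range spans only the Block and the Activity array of an ActD state. No share over all probes is given beside these sums, so nothing is read from an overlap or its absence. The part of these markers in the Cp difference was not tested.

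Activity minus Block is the comparison the study was built on. Averaged over harvests it was -0.38 ± 0.21 for Lcn2, 0.12 ± 0.16 for Tf, -0.08 ± 0.33 for Cp and 0.18 ± 0.19 for Chi3l1 without ActD. With ActD it was -0.06 ± 0.21, -0.11 ± 0.16, 0.31 ± 0.33 and -0.05 ± 0.19 in the same order. None of the 4 was called, and limma called 0 of 11792 probes (0%) in either comparison, with 884 probes without and 338 with ActD at an unadjusted p under 0.05. With errors of this size, small changes could not be seen. The values without ActD rested on single arrays. With each array left out in turn, that of Lcn2 was -0.72 without Block at 60 min and -0.04 without Block at 30 min, and it kept its sign. Tf gave -0.03 without Activity at 5 min and 0.36 without Block at 30 min. Chi3l1 ran from -0.10 without Block at 5 min to 0.48 without Block at 30 min. For Cp the range was -0.52 without Activity at 5 min to 0.22 without Activity at 60 min, so the signs of Tf, Chi3l1 and Cp were not stable.

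At 5 min the differences of Lcn2, Tf and Chi3l1 were larger without ActD than with it, and they varied in sign between harvests. Without ActD, Lcn2 differed by -0.53 at 5 min, -0.90 at 30 min and 0.30 at 60 min. Tf differed by 0.55, -0.40 and 0.21 and Chi3l1 by 0.67, -0.46 and 0.34 at the same harvests, so both were higher in Activity at 5 min, where Lcn2 was lower. Cp gave 0.18, -0.25 and -0.17. With ActD the values were 0.10, -0.08 and -0.21 for Lcn2, 0.02, -0.35 and -0.01 for Tf, 0.35, 0.43 and 0.14 for Cp, and 0.16, 0.05 and -0.36 for Chi3l1. The interaction of activity and ActD over harvests was 0.32 ± 0.30 for Lcn2, -0.23 ± 0.22 for Tf, 0.39 ± 0.47 for Cp and -0.24 ± 0.27 for Chi3l1.

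**Figure D3:**
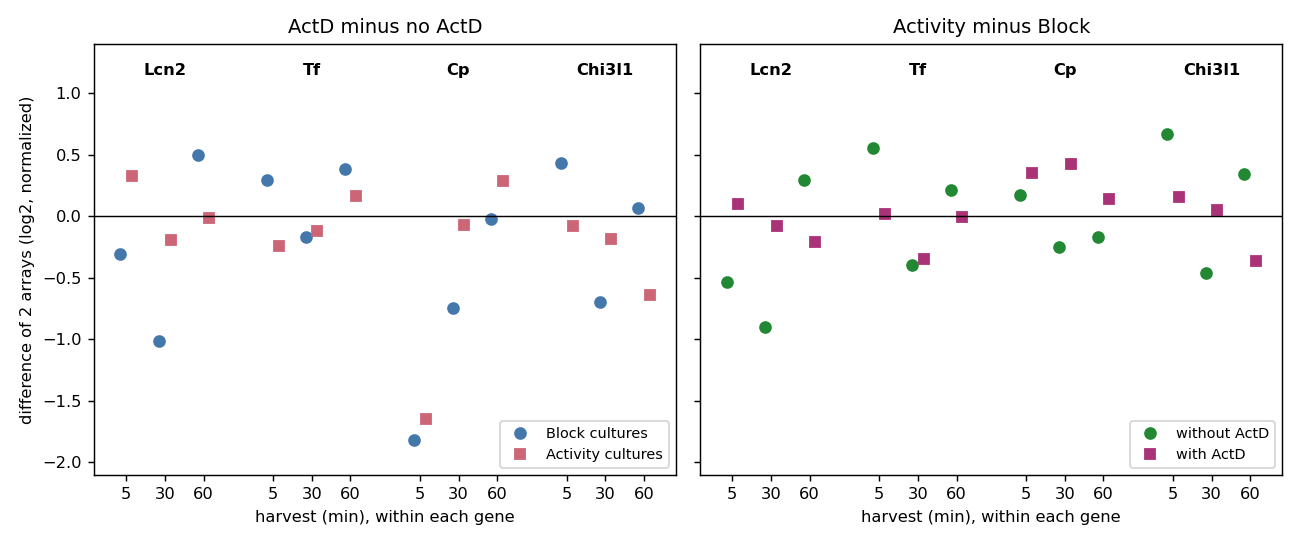
Differences between 2 arrays of the same harvest (normalized, log2) for Lcn2, Tf, Cp and Chi3l1 at 5, 30 and 60 min; the left panel gives ActD minus no ActD in Block (circles) and Activity (squares) cultures, and the right panel Activity minus Block without (circles) and with (squares) ActD. Cp at 5 min lies at -1.82 and -1.65 in the left panel, away from all other points.

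The study's methods name a z-fold and count a transcript as co-regulated where both ActD states pass 1.4 on the same side of 0. They give neither its formula nor a log step, and it was computed here as a difference of z-scored log intensities divided by its SD over probes. Cp was not detected on all 12 arrays at p under 0.1 and has no z-fold. At 5 min the z-fold without and with ActD was -2.89 and 0.12 for Lcn2, 3.08 and -0.32 for Tf, and 3.61 and 0.88 for Chi3l1. At 30 min it was -4.48 and -0.27, -1.91 and -1.39, and -2.14 and 0.05 for the same genes. At 60 min it lay between -1.30 and 1.08 for all 3. No gene passed 1.4 in both states on the log scale. On linear intensities Chi3l1 did so at 5 min, with 8.39 without and 4.40 with ActD.

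Among the receptors and partners of these proteins some were higher and some lower at the later harvests. Slc22a17, described as a cell surface receptor of Lcn2, read 2372.6 to 2611.2 at 5 min and 2161 to 3042.1 later, with a later minus 5 min difference of 0.10 ± 0.07 that was not called. No probe carried the symbol of Lrp2, the endocytic receptor that also takes up Lcn2. Tfrc, the receptor that imports Tf with its iron, rose by 0.64 ± 0.12 (limma, adjusted p = 0.000455), from 96 to 165.5 at 5 min to 136.5 to 227 later. Tfr2, the iron-sensing second receptor, fell by 0.35 ± 0.12 (limma, adjusted p = 0.0325).

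On the export side, Slc40a1, ferroportin, through which iron leaves cells, fell from 178.5 to 241.2 at 5 min to 85.3 to 112.1 later, a difference of -1.40 ± 0.10 (limma, adjusted p = 1.25e-07). Heph, hephaestin, a copper oxidase related to Cp, was close to background, with 0 of 4 arrays detected at 5 min and 3 of 8 later, and had a difference of 0.31 ± 0.10. Fth1, the heavy chain of the iron store ferritin, rose by 0.30 ± 0.06. Hamp, hepcidin, the hormone that degrades ferroportin, was detected on 0 arrays.

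A gene detected only at 5 min could hardly fail to fall, so the gene lists are counted over genes detected on at least 2 of the 4 arrays of 5 min and 4 of the 8 later ones. This leaves out genes that fell to background, which are given apart. Of all 9961 probes that met the same rule, 26.8% rose and 25% fell from 5 min to later, with a median of -0.02. Of 28 other iron genes on the array 16 met it, of which 4 rose and 7 fell, with a median of -0.06. Among those that fell, Hmox1, which breaks down heme, had -1.13 ± 0.07, Slc11a2, an iron importer, -0.93 ± 0.06, and Bmp6, a signal that raises hepcidin, -1.24 ± 0.10. Of the 20 iron genes that passed the detection filter, some of them not detected at both times, 5 rose and 9 fell. With arrays scaled to equal totals 9 rose and 8 fell. Of all tested probes 3050 rose and 2759 fell, and with equal totals 3900 rose and 1864 fell.

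Of 23 other acute phase genes on the array, 6 were detected at both times, of which 4 fell and 1 rose, with a median of -0.40. Others were close to background later. Serping1, the inhibitor of complement C1, read 2379.7 to 3625.2 at 5 min and 49.8 to 73.4 later, where 1 of 8 arrays detected it, and was at least 73.4-fold higher at 5 min. Cfb read 7231.6 to 13902.1 at 5 min and 44.9 to 72.1 later, again with 1 of 8 detected. Orm1, an acid glycoprotein and itself a lipocalin, was at least 4.09-fold higher at 5 min, with 1 of 8 later arrays detected. Cd14, a coreceptor for bacterial endotoxin, fell by 1.73 ± 0.10. Agt, angiotensinogen, made by astrocytes, rose by 1.72 ± 0.11, from 179 to 269.8 at 5 min to 427.5 to 761.9 later. Of the 23 genes, 11 were detected on 0 arrays, among them the liver products Alb, Hp, Fgb and Apcs, whereas Crp, Ttr and A2m, which the liver also makes, were detected on all 12.

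Of 12 genes detected at both times that carry cytokine signals to acute phase genes, 8 fell and 3 rose, with a median of -0.65. Differences were -2.03 ± 0.06 for Nfkbia, the inhibitor that NF-kB itself induces, -1.49 ± 0.08 for Cebpb, a C/EBP factor, -1.18 ± 0.09 for the cytokine Cntf and -0.94 ± 0.09 for Stat3. Those that rose were Jak1 by 0.73 ± 0.09, Jak2 by 0.61 ± 0.19 and Hif1a by 0.92 ± 0.17. Il6 and Socs3 were detected on 0 arrays. In the families of the proteins themselves, 3 chitinase-like and lipocalin genes were detected at both times, of which 1 rose and 1 fell, the latter Ctbs, a chitobiase, at -0.91 ± 0.09. Ptgds, the lipocalin that makes prostaglandin D2, was detected on 4 of 4 arrays at 5 min and 0 of 8 later, a fall of at least 1.51-fold.

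Markers of the cells that could hold these transcripts moved in different ways between 5 min and later. Of 12 genes of reactive astrocytes detected at both times 11 fell and 0 rose, beside 25% and 26.8% of all probes, with a median of -1.20. The summed normalized level of the 18 genes that passed the detection filter was 45034 to 47905 at 5 min and 21368 to 28920 later. This set includes genes not detected at both times, such as Serping1, so nothing is read from the sum. Its brightest genes by bead intensity were Vim, at 19507.4 to 23631 at 5 min, and Gfap, at 15279.3 to 17727.4, which is also among the general markers. The difference was -2.76 ± 0.09 for Gbp2 and -2.43 ± 0.09 for Hspb1, a small heat shock protein, while the chemokine Cxcl10 was detected on 4 of 4 arrays at 5 min and 0 of 8 later, a fall of at least 9.90-fold. General astrocyte markers were near even, with 3 higher and 2 lower of 7. Their sum was 47851 to 54429.6 at 5 min and 45166.5 to 52631.8 later. Gfap, the astrocyte filament protein, had -0.54 ± 0.05 and S100b -0.71 ± 0.09, while the astrocyte enzyme Aldoc had 0.41 ± 0.05 and Gja1, a gap junction protein, 0.24 ± 0.08.

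Of the microglial markers 0 were detected at both times, so no count is given. Of the 6 that passed the detection filter, Trem2 alone was detected on more than 1 later array. Their summed normalized level was 793 to 1309 at 5 min and 43.7 to 83.7 later. Aif1, a marker of these immune cells, had bead intensities of 572 to 933.1 at 5 min and 40.3 to 73.3 later. There 1 of 8 arrays detected it, and it was at least 18.4-fold higher at 5 min. Trem2, detected on 3 of the 8, fell by 1.60 ± 0.13. Ctss, C1qa, C1qb and Tyrobp were detected on 0 of 8 later arrays. The bounds were at least 3.86-fold for Ctss, 1.73-fold for C1qa and 2.05-fold for C1qb. Of 4 fibroblast and vessel markers detected at both times 1 fell and 1 rose, with Col1a2, a collagen, at -1.58 ± 0.15.

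The oligodendrocyte lineage, a known source of Tf, had 1 of 7 markers detected at both times higher and 2 lower. Pdgfra, of its precursors, rose by 0.80 ± 0.10, whereas Cnp, a myelin enzyme, had -0.55 ± 0.07 and Sox10 -0.33 ± 0.10. Its sum was 14908.8 to 16195 at 5 min and 14165.9 to 16600.5 later. Choroid plexus and ependymal markers, of another source of Tf, had 1 of 3 lower, with sums of 968 to 1265 and 605 to 1983, and Kcnj13, Clic6 and Aqp1 were detected on 0 arrays. Neuronal markers ran the other way. Of 9 detected at both times 7 rose and 0 fell, with a median of 0.61, and Syt1, a vesicle protein, rose by 1.26 ± 0.13. The neuronal sum was 26425.5 to 33944.7 at 5 min and 37259.7 to 49273.7 later. The part of these cell types in the falls of the 4 genes was not tested.

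**Figure D4:**
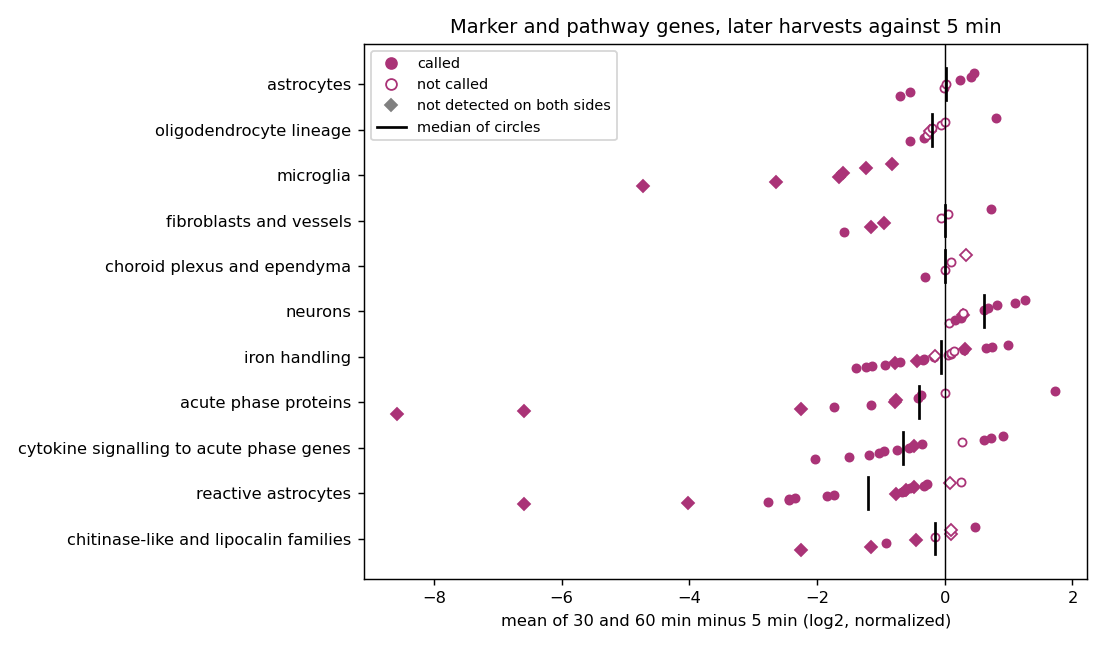
Difference between the mean of the 30 and 60 min arrays and that of the 5 min arrays (log2, normalized) for the tested genes of 11 lists; filled points were called at an adjusted p of 0.05, open points were not, diamonds are genes not detected on 2 of the 4 arrays of 5 min and 4 of the 8 later arrays, and the black line is the median of the circles. Diamonds at background later, among them most microglial genes, Cfb and Serping1, are plotted as measured. Bounds given in the text are smaller than these plotted falls. Of the circles 11 of 12 reactive astrocyte genes were called lower and 7 of 9 neuronal genes higher.

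From 30 to 60 min, where Lcn2 and Tf fell further, all 4 tested choroid plexus and ependymal markers fell as well, where 3.58% of all tested probes were lower and 2.89% higher. The difference was -2.08 for Ttr, transthyretin, -1.59 for Otx2, -0.89 for Folr1, which was detected on 1 of 4 arrays at 5 min and 3 of 8 later, and -0.55 for Msx1. Unlike Lcn2 and Tf, 3 of these markers were higher at 30 than at 5 min. From 5 to 30 min Ttr rose by 1.05, Otx2 by 0.90 and Folr1 by 0.78, and Msx1 had -0.04 and was not called. From 5 to 60 min Ttr fell by 1.03, Otx2 fell by 0.69 and Msx1 fell by 0.58, while Folr1 had -0.11 and was not called. Of the reactive astrocyte genes 8 of 18 fell and 1 rose, Hmox1 was the only iron gene called, at -1.30, and none of the 6 microglial markers was called. The oligodendrocyte markers had 1 of 8 higher and 1 lower. Of 11 acute phase genes 2 rose and 2 fell, Ttr among the latter. Of 13 cytokine signalling genes 2 fell and 0 rose. Of 6 fibroblast and vessel markers 1 fell, Col1a2 at -1.57, and of 10 neuronal markers 1 fell, Nefl at -0.69, with 0 higher in either list. The part of these markers in the falls of Lcn2 and Tf was not tested.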

How the data were processed

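Groups follow the labels of the 12 arrays. The authors pooled coverslips, scanned the bead arrays and summarized the beads in BeadStudio, whose version is not given in the sources used here. The deposited intensity values are linear mean bead signals without background subtraction. The deposited detection p-value compares each probe with the negative controls of its array. A second deposited table holds the same intensities scaled to equal totals and served as an alternative. Symbols came from the platform annotation: 13793 probes had 1 symbol, 0 had several and the others had none and are unnamed here.

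Intensities were processed with limma's neqc (limma 3.58.1, R 4.3.3): normexp background correction from the detection p-values, offset 16, quantile normalization and log2. A probe was tested if its detection p was below 0.01 on 2 arrays or more, which held for 11792 probes and all 4 members. Fits used lmFit and eBayes with a variance trend, with treatment and harvest as factors (6 residual degrees of freedom) or stimulus, ActD, harvest and ActD by late harvest, and Benjamini-Hochberg adjustment at 0.05 over all tested probes. Since each group held 1 array, harvests stood in for replicates of a treatment and treatments for those of a harvest. The p-values therefore measure only that spread, which may be technical. The number of arrays limits the precision. The scripts were tested on simulated data. Background is the median intensity of probes with a detection p around the middle of its range. A probe below detection throughout a group, or on all but 1 array of it, is given a bound, set against the mean of the higher of its own level and the lowest detected level of each array. Alternatives were another normalization, no background correction, other detection filters, other variance models, each array left out and, chosen after seeing the data, subsets of harvests or of ActD and list counts over genes detected on at least 2 of the 4 arrays of 5 min and 4 of the 8 later arrays.

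The members and the gene lists were chosen with earlier results of these data known. Named genes are the 4 members, their fixed partners, the 5 most alike probes of each and, from each list, up to 4 called genes by lowest p. Named beside these, after their values were seen, were genes with few calls in a list, undetected markers, Cfb and Sh3bgrl1. Promoters came from the RefSeq table of GRCr8, and motifs were searched on both strands.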

Additional observations from a re-analysis of the deposited data

Results flagged for a closer look

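The change of the ActD difference of Cp between the later harvests and 5 min was 1.59 ± 0.25 on the log2 scale. It was singled out because the term for ActD by late harvest was called in the fit over all probes, a call that ended without the Block or the Block + ActD array of 5 min. The call supports nothing further, since Cp was not detected on 7 of its 8 later arrays and the value mostly restates the difference at 5 min.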

How the results depend on the processing

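No paired analysis was possible because all 12 arrays carry the same replicate number and each group holds 1 array, so the number cannot pair arrays. Harvest was already a factor in the treatment comparisons. No difference of the 4 genes between later harvests and 5 min changed sign under any alternative run. Their sizes were smaller with arrays scaled to equal totals, at -7.18 for Lcn2, -7.00 for Tf, -5.27 for Chi3l1 and -3.24 for Cp, and similar with equal medians or no background correction. The 60 minus 30 min difference was -1.23 for Lcn2 and -0.79 for Tf with equal medians and -1.25 and -0.82 without background correction. With only the arrays without ActD Cp gave -5.46 and with only those with ActD -3.86. A filter on detection on all 12 arrays leaves no value for Cp. Of the calls between later harvests and 5 min, 47.5% were lower in the main setting, 32.3% of 5764 with equal totals, 36.3% of 5259 with equal medians and 47.6% without background correction. Slc1a2, Slc1a3, Cspg4 and Cldn5, none of them called, changed sign between scalings. For ActD in Block cultures 0 probes were called, 1 with robust variance and 10 without the 5 min harvest.

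With each array left out in turn, 4740 to 5740 probes were called between later harvests and 5 min (5809 with all arrays) and 443 to 825 between 60 and 30 min (763 with all), with 495 without Block at 30 min, 470 without Activity at 30 min, 469 without Block at 60 min, 470 without Activity at 60 min and 443 without Activity + ActD at 60 min. For the change of the ActD difference the range was 0 to 1145 (619 with all), with 0 without Block or Block + ActD at 5 min. It was 322 without Block, 253 without Activity and 328 without Activity + ActD at 30 min, and 953 without Block, 1145 without Block + ActD, 237 without Activity and 329 without Activity + ActD at 60 min. For ActD in Block cultures it was 0 to 1327, with 1327 without Block + ActD at 30 min and 2 without Activity + ActD at 5 min, and for ActD on average 0 to 604. The ranges for ActD in Activity cultures, for activity with and without ActD and for the interaction were 0 to 0. The cause was not tested. Signal over background limits Cp at the later harvests.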
